A study of Rattus norvegicus with 25 samples.

Results

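The comparison set the esophageal epithelium of 15 rats given N-nitrosomethylbenzylamine (NMBA) together with a tocopherol preparation against that of 5 rats given NMBA alone, and asked which changes the preparations had in common. Its 20 arrays, 1 per rat, were chosen from the 25 arrays of the study by their titles. All rats were F344 males, an inbred strain, and NMBA is a nitrosamine that alkylates DNA and induces squamous tumours of the rat esophagus. The tocopherol rats were 5 given NMBA plus alpha-tocopherol (NMBA+Alpha-T), 5 given NMBA plus delta-tocopherol (NMBA+Delta-T) and 5 given NMBA plus a gamma-enriched tocopherol preparation (NMBA+Gamma enriched-T). Rats of the NMBA group ate a normal diet, and so did the 5 Control rats, which received no NMBA and served here to place the levels. Doses, routes, times, ages and the make-up of the gamma-enriched preparation are not stated in the labels.

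Tocopherols are forms of vitamin E, lipid-soluble antioxidants that differ in the methyl groups on the chromanol ring. In an inflamed squamous epithelium, interferon-gamma from T cells and natural killer cells induces the chemokines Cxcl9, Cxcl10 and Cxcl11. These bind Cxcr3 on activated T cells, and the same cytokine induces class II major histocompatibility (MHC) genes through the coactivator Ciita. The level of a gene is given below as log2 signal minus the 75th percentile of its array, so that 0 is that percentile. A difference is tocopherol minus NMBA in log2 units, with limma's moderated standard error (SE), and a gene was called when its Benjamini-Hochberg adjusted p over all 12360 genes tested was under 0.05.

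The arrays lay on 4 slides, and no slide held both tocopherol and NMBA rats. Slide and treatment can therefore be separated only through Control rat 1. That rat shared slide 2 with all gamma-enriched rats and delta rats 4 and 5. NMBA rat 5 was alone on slide 4, so a fixed slide block leaves it out of the comparison. The share of spots well above background averaged 76.5% ± 1.8 on tocopherol arrays and 72.9% ± 2.0 on NMBA arrays (SD, n = 15 and 5, two-sided exact permutation test over 15504 assignments, p = 0.00181), and 74.4% to 76.1% on Control arrays. The counts of genes called with slide, and with this share as a covariate, are given below. The epithelial markers Krt5, Krt14, Krt4, Krt13 and Tp63 were well above background on all 15 tocopherol and all 5 NMBA arrays. Muscle genes were measured too, with a mean level over 20 genes of 1.80 to 3.47 in tocopherol rats and 2.34 to 3.03 in NMBA rats, and 0 of the 20 were called. In whole tissue, fewer cells of a type and less RNA per cell cannot be told apart.

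Tocopherol rats differed from NMBA rats in 1444 genes, or 11.7% of those tested, with 1146 lower (9.27%) and 298 higher (2.41%). The falls included 68 of 102 tested genes of the CXCR3 axis, CC chemokines, interferon response, T cells, cytotoxic lymphocytes and MHC class II. None of those 102 was called higher. Their median difference was −0.96, against −0.08 over all genes tested. Of the 68, 49 were called on leaving out any 1 rat, 19 without NMBA rats 2 and 3, and 20 with the share of spots above background as a covariate. All 68 stayed below 0 in the last 2 fits, with medians over the 102 genes of −0.93 and −1.22 in that order. All 1444 genes called in the pooled test also kept their sign in those fits, so this was not particular to the immune genes. The pooled test was passed on leaving out any 1 of the 20 rats by 431 genes (3.49%), 360 of them lower (2.91%). Leaving out 1 NMBA rat moved the count most, to 593 without rat 1, 581 without rat 2 and 737 without rat 3. Without NMBA rats 2 and 3 together, the arrays with the lowest shares of spots above background, 76 genes were called (0.615%), and 74 with that share as a covariate (0.599%). The rises were spread over genes of other kinds, among them those of the transcription factor Nfic, the PI3-kinase subunit Pik3r1 and the cohesin regulator Pds5a.

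Against the same 5 NMBA rats, NMBA+Alpha-T rats differed in 486 genes (3.93%), with 332 lower (2.69%) and 154 higher (1.25%). NMBA+Delta-T rats differed in 400 (3.24%), with 350 lower (2.83%) and 50 higher (0.405%), and NMBA+Gamma enriched-T rats in 1217 (9.85%), with 1045 lower (8.45%) and 172 higher (1.39%). These comparisons share their NMBA arrays, so their calls are not separate evidence. The genes common to the preparations, called in the pooled test and in each single comparison in the same direction, numbered 132 (1.07%), with 111 lower (0.898%) and 21 higher (0.17%). Over all genes tested, 113 had no overlap between tocopherol and NMBA rats (0.914%), 93 with tocopherol lower (0.752%) and 20 with tocopherol higher (0.162%). In 60 of the 132 (0.485% of the genes tested) every tocopherol rat lay on the same side of every NMBA rat. Of the 102 immune genes 32 were common in this sense, and the median differences over the 102 were −0.89 for alpha, −0.91 for delta and −1.11 for gamma-enriched.

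The CXCR3 axis fell in all its 4 members, with a median difference of −2.05. Cxcl11, a ligand of Cxcr3, ran from −5.71 to −2.74 with a median of −3.73 in tocopherol rats, against −0.97, −1.81, −1.93, −2.67 and −0.996 in NMBA rats 1 to 5. Every tocopherol rat lay below every NMBA rat, with the highest gamma-enriched rat next to NMBA rat 4. The group means were −3.57 ± 0.21 for alpha, −3.68 ± 0.84 for delta and −4.12 ± 1.06 for gamma-enriched rats, against −1.67 ± 0.71 for NMBA rats (SD, n = 5 each). The pooled difference was −2.12 ± 0.35 (SE, adjusted p = 0.00178), or 4.33-fold lower.

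Cxcl9 ran from −2.10 to 0.76 in tocopherol rats, with a median of −0.0018, against 2.38, 1.67, 1.76, 0.64 and 2.40 in NMBA rats 1 to 5. Only NMBA rat 4 lay within the range of the tocopherol rats. Cxcl9 fell by 2.12 ± 0.42 (adjusted p = 0.00396), with −1.85 for alpha, −2.23 for delta and −2.29 for gamma-enriched. Cxcl10 fell by 1.98 ± 0.43 (adjusted p = 0.00664) and its differences were −1.89, −1.86 and −2.20 in the same order, with the delta comparison just short of the threshold (adjusted p = 0.0512). Cxcr3, the receptor itself, fell by 1.58 ± 0.34 (adjusted p = 0.00632). NMBA rat 4 was the lowest NMBA rat in all 4 genes of the axis and in 60 of the 68 immune genes called.

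**Figure D1:**
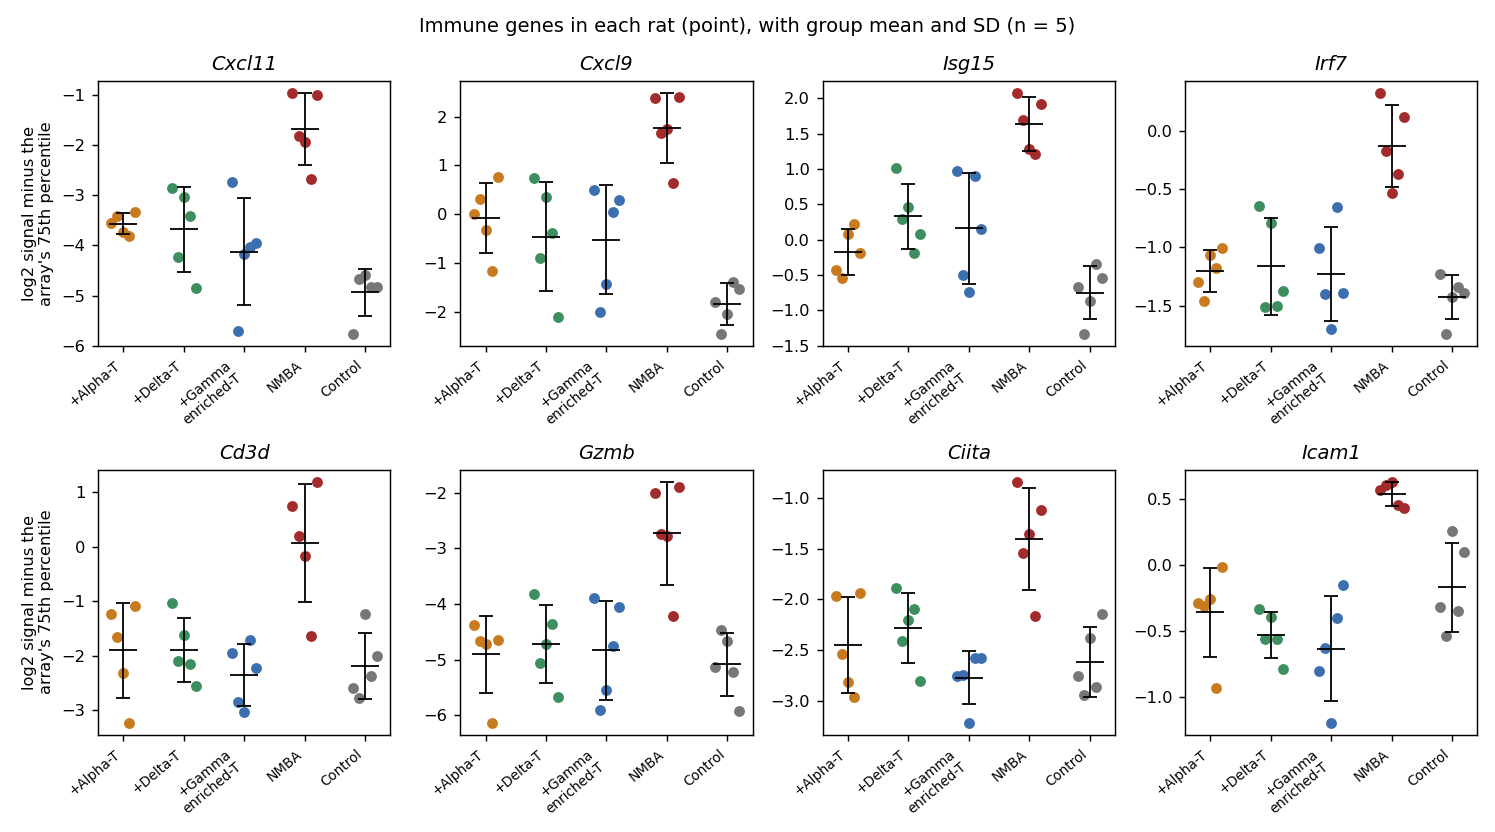
Level of 8 immune genes in each rat (log2 signal minus the array's 75th percentile), by group, with the group mean and SD (n = 5 rats); + marks NMBA with the named tocopherol preparation. In each panel the NMBA rats lie above most or all of the tocopherol rats, and the lowest NMBA rat for Cd3d, Gzmb and Ciita is NMBA rat 4.

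Of 18 CC chemokine genes tested, 8 were lower and 0 higher, with a median of −0.75. Ccl12, a monocyte-attracting chemokine of rodents, ran from −8.66 to −5.38 with a median of −6.73 in tocopherol rats, against −4.04, −3.94, −2.71, −4.38 and −4.92 in NMBA rats 1 to 5. The groups did not overlap, and Ccl12 fell by 2.83 ± 0.50 (adjusted p = 0.00200), but its probe was well above background on 6 of 15 tocopherol arrays and 5 of 5 NMBA arrays. Ccl1, a ligand of Ccr8, fell by 2.42 ± 0.38 (adjusted p = 0.00129) and was above background on 1 of 15 tocopherol arrays and 4 of 5 NMBA arrays. With normexp background correction these falls were smaller, at −1.55 for Ccl12 and −0.82 for Ccl1, and both remained called. Normexp was run with an offset of 50, which by itself makes log2 differences of dim probes smaller. Ccl5, a chemokine that attracts T cells, fell by 1.71 ± 0.35 (adjusted p = 0.00466), with −1.78 for alpha, −1.61 for delta and −1.74 for gamma-enriched. Ccl4, a chemokine made by activated leukocytes, fell by 1.42 ± 0.33 (adjusted p = 0.00920), and by 0.81 with normexp. Ccl22, a dendritic cell chemokine, fell by 0.81 ± 0.18 (adjusted p = 0.00712), with no overlap between the groups.

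Among 33 interferon-induced genes tested, 19 were lower and 0 higher, with a median of −0.76. The induction of such genes is known to pass through the interferon-stimulated response element (ISRE), to which interferon regulatory factors bind. Promoters were searched for its core, GAAA followed by any 2 bases and GAAA, on both strands, in the 250 bases before each gene's start. The core was found in 3.41% of all 33469 promoters and in 2.77% of the 10074 tested genes that had a promoter entry. Of the tested interferon-induced genes, 26 had a promoter entry and 16 of these held the core, including 10 of 15 called genes. The 3 windows below belong to called genes named in the text, with the match in capitals, from RefSeq on GRCr8 and written on the gene's strand; capitals that begin with TTTC are the core on the opposite strand, and positions count from the start.
Irf7 (chr1:205800053-205800112, minus strand, match at −69 to −60): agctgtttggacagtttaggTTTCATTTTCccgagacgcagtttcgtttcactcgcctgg
Gbp5 (chr2:233910923-233910982, plus strand, match at −56 to −47): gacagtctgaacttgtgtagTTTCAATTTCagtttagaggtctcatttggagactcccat
Cxcl10 (chr14:15988816-15988862, plus strand, match at −243 to −234): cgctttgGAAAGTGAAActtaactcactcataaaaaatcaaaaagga
A match describes these letters and is not evidence of binding.

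Irf7, a regulatory factor that amplifies interferon responses, ran from −1.70 to −0.64 with a median of −1.30 in tocopherol rats, against 0.33, −0.17, −0.53, −0.37 and 0.13 in NMBA rats 1 to 5. The groups did not overlap, and the 3 tocopherol groups were close to each other, with means of −1.20 ± 0.18 for alpha, −1.16 ± 0.42 for delta and −1.23 ± 0.41 for gamma-enriched, against −0.12 ± 0.35 in NMBA rats. Irf7 fell by 1.08 ± 0.17 (adjusted p = 0.00115). Isg15, a ubiquitin-like modifier, ran from −0.75 to 1.02 with a median of 0.08 in tocopherol rats, against 2.07, 1.69, 1.28, 1.22 and 1.92 in NMBA rats 1 to 5. It fell by 1.53 ± 0.24 (adjusted p = 0.00132) without overlap, with −1.81 for alpha, −1.30 for delta and −1.48 for gamma-enriched. Psmb8, a catalytic subunit of the immunoproteasome, fell by 1.38 ± 0.24 (adjusted p = 0.00185), also without overlap. Irf1, which drives the response to interferon-gamma, fell by 1.30 ± 0.25 (adjusted p = 0.00356), and its dimmer second probe gave −0.77. The guanylate-binding protein gene Gbp5 fell by 1.30 ± 0.34 (adjusted p = 0.0169), and the largest adjusted p on leaving out 1 rat was 0.0779. Its second probe gave −0.87.

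Of 24 T cell genes tested, 16 were lower and 0 higher (median −1.14), and of 13 cytotoxic lymphocyte genes 12 were lower and 0 higher (median −1.53). Cd3d, a chain of the T cell receptor complex, ran from −3.22 to −1.03 with a median of −2.10 in tocopherol rats, against 0.74, 0.19, −0.17, −1.64 and 1.19 in NMBA rats 1 to 5. NMBA rat 4 alone overlapped the tocopherol rats, and the fall was 2.11 ± 0.37 (adjusted p = 0.00206), or 4.31-fold. Without NMBA rat 4 the difference was −2.53. Cd3e, its partner chain, fell by 1.86 ± 0.35 (adjusted p = 0.00309), and the coreceptor chain Cd8b fell by 1.87 ± 0.34 (adjusted p = 0.00241), or by 0.87 with normexp. The costimulatory receptor Cd27 fell by 2.44 ± 0.59 (adjusted p = 0.0114), or by 1.29 with normexp. Cd5, a surface protein that tunes T cell receptor signals, differed by −0.92 in alpha, −1.14 in delta and −1.23 in gamma-enriched rats. It fell by 1.096 ± 0.18 when pooled (adjusted p = 0.00160), with no overlap.

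Gzmb, the serine protease granzyme B of killer cells, ran from −6.13 to −3.81 with a median of −4.72 in tocopherol rats, against −1.996, −2.74, −2.77, −4.21 and −1.90 in NMBA rats 1 to 5. NMBA rat 4 again lay among the tocopherol rats. Gzmb fell by 2.10 ± 0.37 (adjusted p = 0.00206), with −2.18 for alpha, −2.001 for delta and −2.10 for gamma-enriched. A related granzyme gene, Gzmc, fell by 2.05 ± 0.31 (adjusted p = 0.00115). Dimmer second probes gave −1.20 for Gzmb and −1.30 for Gzmc. Ctsw, a cathepsin of natural killer and cytotoxic T cells, fell by 1.99 ± 0.34 (adjusted p = 0.00185). Gzmk fell by 1.85 ± 0.46 (adjusted p = 0.0139), and its largest adjusted p without 1 rat was 0.0575; with normexp its fall was 1.23.

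Of 10 MHC class II genes tested, 9 were lower and 0 higher, with a median of −0.94. Class II promoters are known to carry a Y box, bound by the factor NF-Y, beside the X box at which Ciita acts. The letters CTGATTGG were found on either strand in 3.19% of all 33469 promoters and in 4.63% of those of tested genes. Of 8 tested class II genes with a promoter entry, 5 held them, among them RT1-Bb and RT1-DOa, whose windows are shown for the matching letters in capitals (RefSeq, GRCr8, gene strand).
RT1-Bb (chr20:4604145-4604202, minus strand, match at −64 to −57): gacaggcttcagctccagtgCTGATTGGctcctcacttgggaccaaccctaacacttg
RT1-DOa (chr20:4758496-4758553, minus strand, match at −110 to −103): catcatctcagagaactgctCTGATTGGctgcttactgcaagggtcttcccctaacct
Genes of the same family share sequence, and the probes may not separate them fully.

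Ciita, the coactivator of class II transcription, ran from −3.22 to −1.89 with a median of −2.58 in tocopherol rats, against −0.84, −1.54, −1.35, −2.16 and −1.11 in NMBA rats 1 to 5. NMBA rat 4 alone fell inside the tocopherol range. Ciita fell by 1.099 ± 0.20 (adjusted p = 0.00227), with −1.05 for alpha, −0.88 for delta and −1.37 for gamma-enriched. RT1-DMb, a chain of the class II peptide loader, fell by 0.98 ± 0.18 (adjusted p = 0.00300), and RT1-Bb, a chain of a peptide-presenting molecule, by 0.98 ± 0.21 (adjusted p = 0.00568). RT1-DOa, a chain of the loader's inhibitor, fell by 1.16 ± 0.29 (adjusted p = 0.0134), and its largest adjusted p on leaving out 1 rat was 0.0539.

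Markers of other immune cells were counted in the same way, against 9.27% called lower and 2.41% called higher over all genes tested. Of 7 B and plasma cell genes 4 were lower, of 10 dendritic and Langerhans cell genes 3 were lower, of 14 macrophage genes 4 were lower, and of 9 mast cell genes 0 were called. Of 10 neutrophil genes 3 were lower and 1 higher. Their median differences were −0.71, −0.73, −0.50, −0.37 and −0.86 in that order. The neutrophil list included the cytokine gene Il1b, which fell by 1.73 ± 0.35 (adjusted p = 0.00475), and the lectin Fcnb, which fell by 1.84 ± 0.43 (adjusted p = 0.00969). The macrophage complement gene C1qa fell by 0.73 ± 0.23 (adjusted p = 0.0409), and Cd86, a costimulatory ligand on antigen-presenting cells, by 0.89 ± 0.27 (adjusted p = 0.0371). Both lost the call when 1 rat was left out, with largest adjusted p of 0.122 for C1qa and 0.131 for Cd86, and C1qa stood at −0.46 with quantile normalization and was not called.

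Among 16 inflammatory targets of the factor NF-kB, 7 were lower and 0 higher, with a median of −0.44. Over all genes tested 9.27% were called lower. Icam1, an adhesion molecule for leukocytes, ran from −1.20 to −0.017 with a median of −0.40 in tocopherol rats, against 0.56, 0.60, 0.63, 0.45 and 0.43 in NMBA rats 1 to 5. The groups were clearly apart, and NMBA rats differed little from each other. Icam1 fell by 1.04 ± 0.15 (adjusted p = 0.000768), with −0.90 for alpha, −1.06 for delta and −1.17 for gamma-enriched. Bcl2a1, an inhibitor of apoptosis in leukocytes, fell by 1.39 ± 0.24 (adjusted p = 0.00187), and the costimulatory receptor Cd40 by 1.01 ± 0.21 (adjusted p = 0.00475). The cytokine gene Tnf fell by 1.17 ± 0.33 (adjusted p = 0.0256), though its largest adjusted p without 1 rat was 0.0892. Rela, which encodes a subunit of NF-kB itself, stood at −0.45 ± 0.18 and was not called (adjusted p = 0.105).

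Outside these lists, the falls common to the preparations and without overlap included Ltb, lymphotoxin beta of lymphocytes, by 1.41 ± 0.28 (adjusted p = 0.00416). The Toll-like receptor gene Tlr10 fell by 1.497 ± 0.30 (adjusted p = 0.00396). Bank1, a B cell scaffold gene, fell by 1.26 ± 0.22 (adjusted p = 0.00206), but was well above background on 2 of 15 tocopherol arrays and 2 of 5 NMBA arrays. Arid3b, a DNA-binding protein gene, fell by 1.20 ± 0.19 (adjusted p = 0.00158). With normexp these falls were 0.80 for Tlr10, 0.57 for Bank1 and 0.52 for Arid3b, all called. With slide in the fit Arid3b stood at −0.39, against −2.09 for Ltb.

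**Figure D2:**
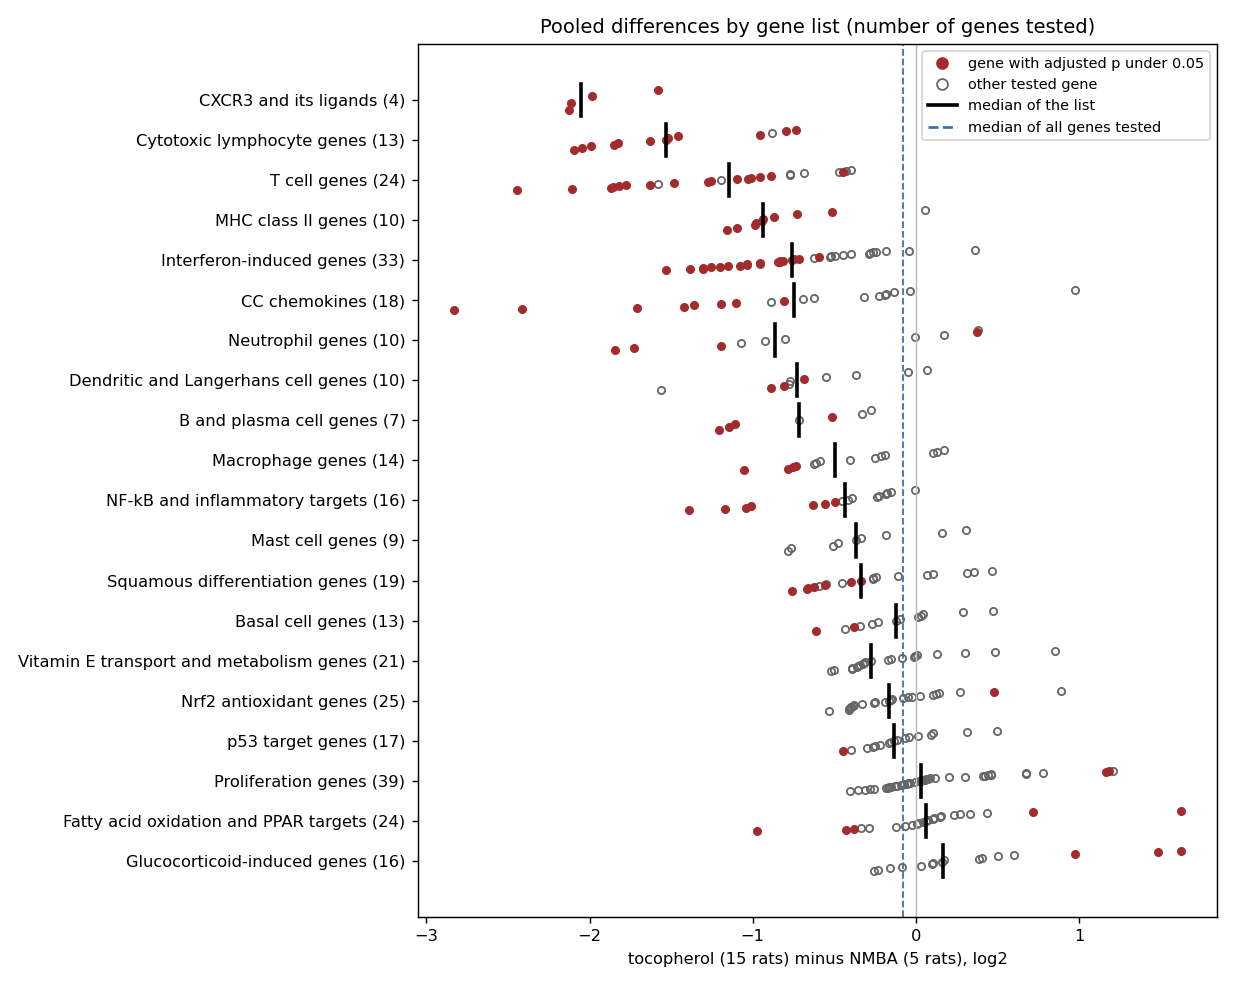
Difference between tocopherol and NMBA rats (log2) for each tested gene of 20 lists; filled points are genes with adjusted p under 0.05, black bars list medians, and the dashed line the median of all genes tested (−0.08). The CXCR3, cytotoxic, T cell and MHC class II lists have the lowest medians, at −2.05, −1.53, −1.14 and −0.94.

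Some keratin and cornified envelope genes fell, while most members of the epithelial lists were not called. Of 19 squamous differentiation genes 7 were lower and 0 higher, with a median of −0.33, and of 13 basal cell genes 2 were lower and 0 higher, with a median of −0.12, against 9.27% lower over all genes. Krt4, a keratin of the suprabasal esophagus, ran from 4.21 to 5.16 with a median of 4.53 in tocopherol rats, against 5.38, 5.23, 5.24, 5.01 and 5.19 in NMBA rats 1 to 5. Of the tocopherol rats only alpha rat 1 reached the NMBA range, and Krt4 fell by 0.67 ± 0.13 (adjusted p = 0.00332). Its partner keratin Krt13 fell by 0.66 ± 0.16 (adjusted p = 0.0111), the basal keratin Krt14 by 0.61 ± 0.14 (adjusted p = 0.00844), and the cornified envelope genes Cnfn by 0.62 ± 0.15 (adjusted p = 0.0108) and Sprr3 by 0.76 ± 0.23 (adjusted p = 0.0320). Sprr3 had a largest adjusted p of 0.109 on leaving out 1 rat.

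These epithelial calls depended on the scaling and on slide. With normexp all 5 were called, from −0.60 for Cnfn to −0.92 for Sprr3, but probes this bright give little check of the background correction. With quantile normalization Krt4 stood at −0.16, Krt13 at −0.09, Krt14 at −0.10, Cnfn at −0.13 and Sprr3 at −0.19, none called, and the median of the squamous list was −0.05. With slide as a block all 5 were above 0, between 0.07 for Krt4 and 0.53 for Sprr3, and the list's median was 0.21. Control rat 1 was the lowest Control rat in 12 of the 19 squamous genes, against 4786 of all 12360 genes (38.7%).

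In response to DNA damage, p53 induces cell cycle inhibitors, and Mgmt removes alkyl groups from guanine. Of 17 p53 target genes 1 was lower and 0 higher, against 9.27% lower and 2.41% higher over all genes tested. The gene called was the cell cycle inhibitor Cdkn1a, which fell by 0.45 ± 0.12 (adjusted p = 0.0202) and stood at 0.38 with slide in the fit. With quantile normalization Cdkn1a was −0.32 and not called, and its second probe gave −0.18. Of 16 genes of alkylation and mismatch repair 3 were lower and 0 higher. Mgmt ran from 0.02 to 1.21 with a median of 0.39 in tocopherol rats, against 1.099, 1.15, 0.77, 0.90 and 1.18 in NMBA rats 1 to 5. Apart from alpha rat 5, every tocopherol rat lay below every NMBA rat. Mgmt fell by 0.60 ± 0.13 (adjusted p = 0.00721), with −0.43 for alpha, −0.62 for delta and −0.77 for gamma-enriched, and stood at −0.46 with slide.

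Among the rises common to the preparations without overlap was that of Nfic, a CCAAT-binding transcription factor gene. It ran from −5.37 to −3.13 with a median of −4.43 in tocopherol rats, against −6.57, −6.68, −5.62, −5.80 and −6.33 in NMBA rats 1 to 5. Alpha rats were highest, with a mean of −3.68 ± 0.41, followed by gamma-enriched rats at −4.66 ± 0.54 and delta rats at −4.75 ± 0.39. The pooled rise was 1.84 ± 0.24 (adjusted p = 0.000498). Pds5a, a regulator of sister chromatid cohesion, rose by 1.60 ± 0.27 (adjusted p = 0.00178). Both probes were well above background on all 15 tocopherol arrays but on 1 of 5 NMBA arrays, and the rises were 0.87 for Nfic and 0.54 for Pds5a with normexp, both called. With slide in the fit they were 0.77 and 0.57 in that order.

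Pik3r1, the regulatory subunit of PI3-kinase, ran from −0.74 to 0.16 with a median of −0.23 in tocopherol rats, against −1.07, −1.496, −1.46, −1.45 and −1.47 in NMBA rats 1 to 5. The groups did not overlap, and 4 of the 5 NMBA rats lay within a narrow span. It rose by 1.11 ± 0.15 (adjusted p = 0.000498), with 1.21 for alpha, 1.12 for delta and 1.004 for gamma-enriched. Sh3bgrl1, which encodes an SH3-binding glutamate-rich protein, rose by 1.19 ± 0.22 (adjusted p = 0.00231). Trib1, a pseudokinase gene, rose by 1.19 ± 0.18 (adjusted p = 0.00115), with 1.74 for alpha, 0.82 for delta and 1.001 for gamma-enriched. With normexp the rise of Trib1 was 0.52.

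The other common rises without overlap were smaller. Rhbdd2, of the rhomboid family, rose by 0.99 ± 0.17 (adjusted p = 0.00190), the nuclear import receptor Kpna3 by 0.96 ± 0.16 (adjusted p = 0.00160) and the arylsulfatase gene Arsk by 0.80 ± 0.13 (adjusted p = 0.00129). Armc1, an armadillo repeat gene, rose by 0.77 ± 0.13 (adjusted p = 0.00178). Vstm5, which encodes a membrane protein with an immunoglobulin-like domain, rose by 0.83 ± 0.14 (adjusted p = 0.00158), but stood at 0.21 with normexp and was not called. With slide in the fit the values of these 10 genes stayed above 0, from 0.35 for Rhbdd2 to 1.27 for Sh3bgrl1.

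**Figure D3:**
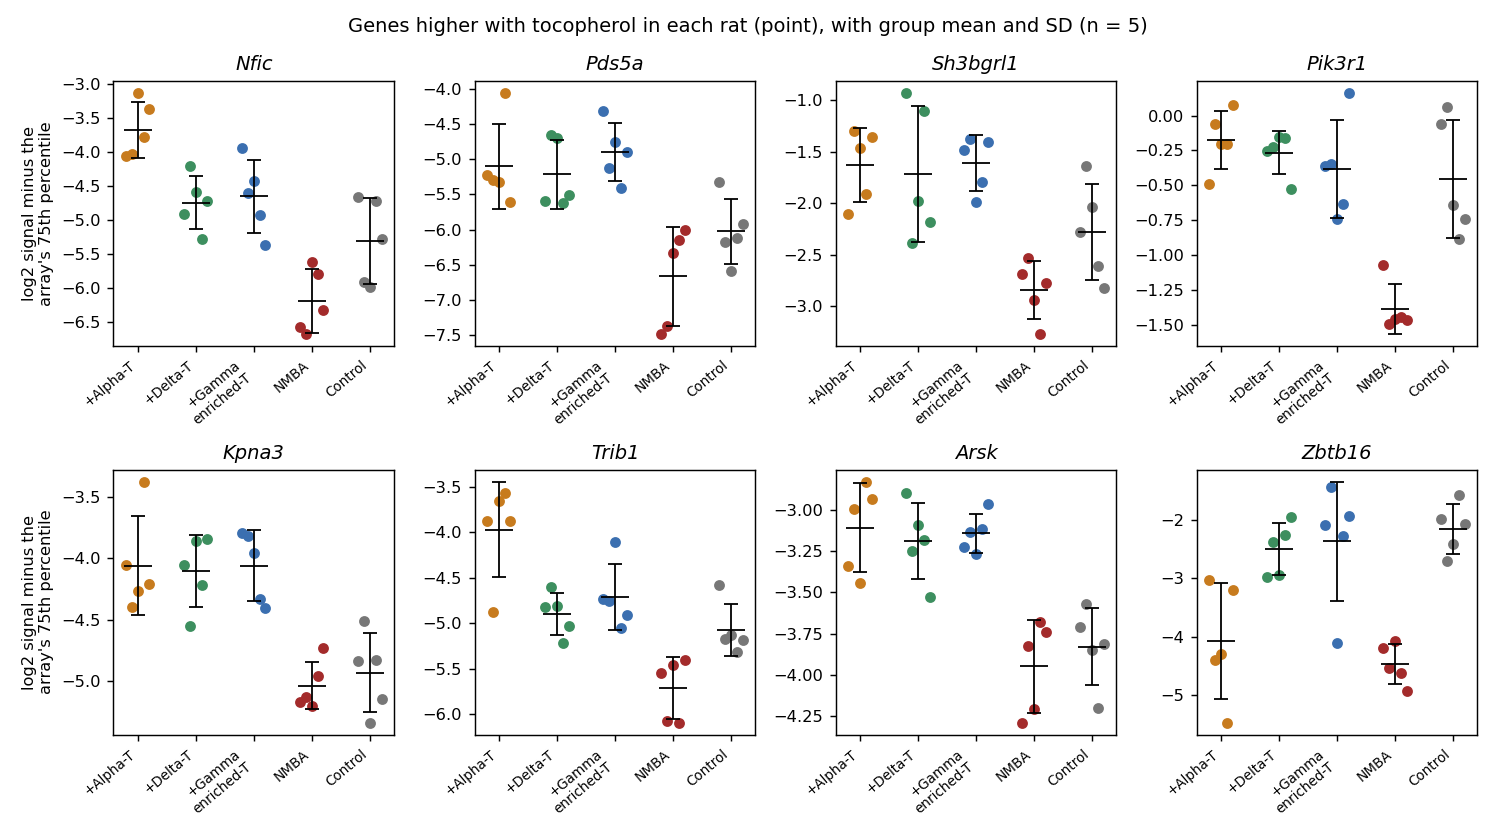
Level of 8 genes called higher with tocopherol in each rat (log2 signal minus the array's 75th percentile), by group, with the group mean and SD (n = 5 rats); + marks NMBA with the named tocopherol preparation. In every panel except that of Zbtb16 all tocopherol rats lie above all NMBA rats. For Zbtb16 alpha rats 2, 3 and 4 and gamma-enriched rat 3 overlap the NMBA rats.

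Metabolic and regulatory lists follow, against 9.27% called lower and 2.41% called higher over all genes tested. Of 24 genes of fatty acid oxidation and PPAR targets 2 were higher and 3 lower. Pdk4, an inhibitory kinase of pyruvate dehydrogenase, rose by 1.62 ± 0.42 (adjusted p = 0.0169), and the acyl-CoA thioesterase Acot1 by 0.72 ± 0.16 (adjusted p = 0.00721). The fatty acid binding protein gene Fabp5 fell by 0.97 ± 0.27 (adjusted p = 0.0232) and stood at 0.35 with slide, and the receptor Ppard fell by 0.43 ± 0.11 (adjusted p = 0.0168), and stood at −0.39 with quantile normalization (adjusted p = 0.0651). Pdk4 also belongs to the glucocorticoid-induced genes, of which 3 of 16 were higher and 0 lower. Its largest adjusted p on leaving out 1 rat was 0.0520, against 0.0842 for Fabp5 and 0.0592 for Ppard.

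Zbtb16, a glucocorticoid-induced transcription factor gene, ran from −5.47 to −1.43 with a median of −2.94 in tocopherol rats, against −4.20, −4.53, −4.06, −4.62 and −4.92 in NMBA rats 1 to 5. Alpha rats had the lowest mean of the 3 preparations. The means were −4.08 ± 0.995 for alpha, −2.50 ± 0.45 for delta and −2.37 ± 1.02 for gamma-enriched, against −4.47 ± 0.34 for NMBA rats. Zbtb16 rose by 1.48 ± 0.35 when pooled (adjusted p = 0.00974), while the alpha difference was 0.39 (adjusted p = 0.692). Gamma-enriched minus alpha was 1.71 ± 0.43, with a 95% interval of 0.84 to 2.59 (adjusted p = 0.0364). Delta minus alpha was 1.58 (adjusted p = 0.852) and gamma-enriched minus delta was 0.14 (adjusted p = 0.965), and neither was called.

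None of the 21 genes of vitamin E transport and metabolism was called (0 higher, 0 lower), and their median was −0.27. The members farthest from 0 were the lipoprotein lipase gene Lpl at 0.85 ± 0.29 (adjusted p = 0.0538) and the phospholipid transfer protein gene Pltp at −0.52 ± 0.35 (adjusted p = 0.350). Of 25 antioxidant genes driven by Nrf2, 1 was higher and 0 lower, and the quinone reductase Nqo1 stood at −0.15 ± 0.11 (adjusted p = 0.398). Of 39 proliferation genes 2 were higher and 0 lower, with a median of 0.03. Those were Dbf4, the activator of a replication kinase, at 1.19 ± 0.29 (adjusted p = 0.0121), and the mitotic gene Hmmr at 1.16 ± 0.28 (adjusted p = 0.0120), and both lost the call when 1 rat was left out, with an adjusted p of 0.0616 for Dbf4 and 0.0549 for Hmmr. The cell cycle marker Mki67 was at 0.09 ± 0.27 (adjusted p = 0.866) and the cyclin Ccnd1 at −0.05 ± 0.14 (adjusted p = 0.838), with 95% intervals of −0.47 to 0.64 and −0.34 to 0.23. Both signs turned under some alternatives. Dimmer probes of Mki67 gave 0.56 and 0.27. The incretin hormone gene Gip stood at −0.83 ± 0.28 (adjusted p = 0.0512).

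The other lists are given as counts, against 9.27% called lower and 2.41% called higher over all genes tested. Of 25 glycolysis and hypoxia genes 4 were lower, of 21 glutathione transferases 3, of 16 genes of xenobiotic metabolism 3 and of 22 genes of cholesterol and fatty acid synthesis 2, with 0 higher in each. Of 22 immediate early genes 3 were lower and 1 higher, and of 18 eicosanoid genes, the prostaglandin and leukotriene enzymes and receptors, 1 was lower and 1 higher. Of 19 genes of the amino acid and unfolded protein responses 1 was lower and 1 higher, and of 22 chromatin and splicing genes 1 was lower and 2 higher. Among 14 circadian clock genes, 20 apoptosis genes, 12 genes of the EGF receptor family and its ligands, and 13 matrix metalloproteinases and relatives, 1 each was lower and 0 higher. Among stromal markers 0 were called of 19 fibroblast and matrix genes, 0 of 10 endothelial genes and 0 of 8 adipocyte genes, and 1 higher of 15 nerve and glia genes. The medians of the lists in this paragraph lay between −0.29 for xenobiotic metabolism and 0.12 for nerve and glia.

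Over the 102 immune genes, tocopherol minus Control had a median of −0.01 and NMBA minus Control a median of 0.90, where the comparisons share arrays with those above. Of the 4 genes of the CXCR3 axis, Cxcl10 was called above Control in tocopherol rats, at 2.38 (adjusted p = 0.00654), and it was 4.36 above Control in NMBA rats. Tocopherol minus Control was not called for Cxcl9 at 1.49 (adjusted p = 0.0862), Cxcl11 at 1.15 (adjusted p = 0.114) or Cxcr3 at 0.32 (adjusted p = 0.664). The T cell list stood at −0.01 for tocopherol minus Control and 1.24 for NMBA minus Control. Gip was 4.76 above Control in tocopherol rats and 5.59 above Control in NMBA rats. Zbtb16 was 0.83 below Control in tocopherol rats and 2.32 below Control in NMBA rats. Over all genes, 118 were called between tocopherol and Control rats (0.955%; 92 higher, 0.744%, and 26 lower, 0.21%) and 198 between NMBA and Control rats (1.6%; 169 higher, 1.37%, and 29 lower, 0.235%).

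With slide as a fixed block 1 gene of 12360 was called (0.00809%) and 867 had an unadjusted p under 0.05 (7.01%), and none of the 1444 calls remained. The median of all genes tested moved to 0.09 in it, against −0.08 without slide. This fit estimates the step between slides 2 and 3 from Control rat 1 against the other Control rats, and that between slides 1 and 2 from the delta rats. NMBA rat 5 was alone on slide 4, so the NMBA level in this fit rests on NMBA rats 1 to 4. Its standard errors were therefore large, for example 0.88 for Cxcl11 at −1.31 and 0.43 for Irf7 at −1.50. Values with slide were −2.71 for Cxcl9, −1.91 for Isg15, −1.74 for Cd3d, −2.08 for Gzmb, −1.001 for Ciita, −1.01 for Icam1 and 0.53 for Pik3r1. In this fit the called falls kept their sign to different degrees. Of the 68 immune genes called lower, 67 stayed below 0 and their median was −1.35, against −1.20 without slide. Of the other 1078 genes called lower, 583 stayed below 0 and their median was −0.04, against −0.64 without slide. Of the 111 falls common to the preparations, 32 of them immune genes, 103 stayed below 0. Their median was −0.77, against −0.95 without slide, so keeping the sign was not particular to immune genes. Of the 298 genes called higher, 254 stayed above 0, with a median of 0.46 against 0.62 without slide.

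With the share of spots above background as a covariate, all 1444 genes called in the pooled test kept their sign, and 73 of them remained called. Of the 65 named here, 22 were called. These were Cxcl11, Irf7, Isg15, Psmb8, Cd3d, Cd3e, Cd5, Gzmb, Gzmc, Ctsw, RT1-DMb, Ltb, Tlr10, Bcl2a1 and Icam1 among the falls, and Nfic, Pds5a, Pik3r1, Trib1, Rhbdd2, Arsk and Armc1 among the rises. Calls lost included Ccl5 (adjusted p = 0.114), RT1-Bb (adjusted p = 0.151) and Cd40 (adjusted p = 0.0919).

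Control rat 1 was the lowest of the Control rats in 19 of the 68 immune genes called lower (27.9%), in 741 of the other 1078 (68.7%) and in 38.7% of all genes tested. The slide block draws on this same rat, so the positions and the blocked values are not separate measurements. Falls were also more frequent among dim genes, with 13% called lower among the 4120 dimmest genes by mean signal, 6.38% among the 4120 of middle signal and 8.40% among the 4120 brightest.

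**Figure D4:**
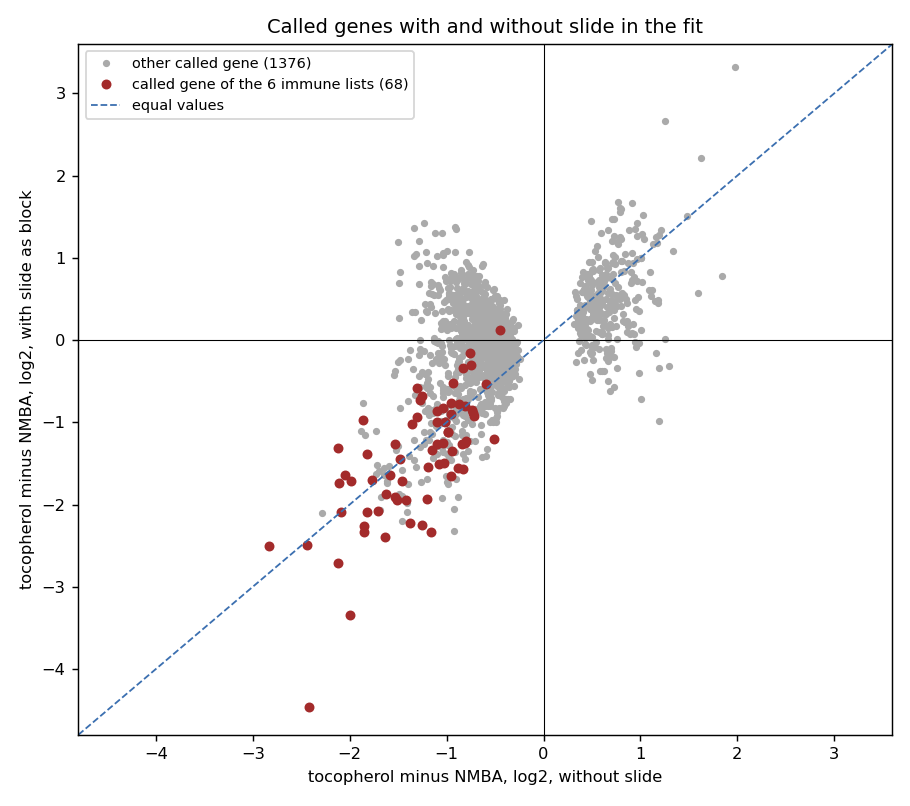
Difference between tocopherol and NMBA rats (log2) of the 1444 called genes without slide (horizontal axis) and with slide as a block (vertical axis); the dashed line marks equal values. The 68 called genes of the 6 immune lists lie on both sides of the dashed line with 67 below 0 on the vertical axis, whereas the other falls have a vertical median of −0.04.

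The preparations differed from each other in few genes. A moderated F test among the 3 tocopherol groups called 14 genes (0.113%), 7 of them among the 1444 called in the pooled test, and 1164 had an unadjusted p under 0.05 (9.42%). The NMBA and Control means did not enter this test, but their arrays added to its estimate of spread. Without the Control arrays it called 153 genes. In the 3 pairwise contrasts gamma-enriched minus alpha called 211 genes (1.71%), with 194 lower (1.57%) and 17 higher (0.138%), while delta minus alpha and gamma-enriched minus delta called 0 each. None of the 102 immune genes differed in the F test, in which 1 had an unadjusted p under 0.05. Their median for gamma-enriched minus alpha was −0.22. For Cxcl11, gamma-enriched minus alpha was −0.55, with a 95% interval of −1.45 to 0.34. For Irf7 it was −0.03, with an interval of −0.45 to 0.39. Differences within those bounds are not excluded.

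Among the named genes called in the pooled test, those that differed most among the preparations were Tnni3k, a cardiac troponin-interacting kinase gene, and Tcte1, a testis-expressed gene. Each had an adjusted p of 0.0419 in the F test. Tcte1 averaged −5.11 ± 0.36 in alpha, −5.86 ± 0.29 in delta and −6.76 ± 0.19 in gamma-enriched rats, against −4.89 ± 0.18 in NMBA rats. Tnni3k averaged −6.18 ± 0.22 in alpha, −7.38 ± 0.67 in delta and −8.31 ± 0.46 in gamma-enriched rats, against −6.28 ± 0.22 in NMBA rats. Both are dim, Tnni3k being above background on 5 of 15 tocopherol arrays and 1 of 5 NMBA arrays, and Control rat 1, on the gamma-enriched slide, was the lowest Control rat for each. The pooled call of Tnni3k was lost on leaving out 1 rat (largest adjusted p = 0.102). With slide in the fit the pooled difference stood at 0.71 for Tnni3k and 0.76 for Tcte1. Alpha rats were all on slide 1 and gamma-enriched rats all on slide 2, and the delta rats lay on both. Tnni3k stood at −6.59, −7.03 and −7.25 in delta rats 1 to 3 on slide 1 and at −8.35 and −7.70 in delta rats 4 and 5 on slide 2. Tcte1 stood at −5.41, −5.77 and −6.03 in delta rats 1 to 3 and at −5.94 and −6.15 in delta rats 4 and 5. With slide as a fixed block the F test called 0 genes, against 14 without it.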

How the data were processed

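Total RNA of 25 rat esophageal epithelia was hybridised to 1-colour Agilent arrays, 1 per rat. Each deposited scanner file holds fluorescence intensity, background-subtracted and detrended per the file headers, which name Feature Extraction 11.5.1.1 (10.7 in the submitters' processing notes). The authors' deposited log2 value table followed log2 processed signal minus the array's 75th percentile and served as an alternative. Its normalization is not stated beyond that match.

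From the scanner values, outlier spots were dropped, log2 processed signals were averaged per probe and each array's 75th percentile was subtracted. Of 30367 probes on 58717 spots, 18355 matched 1 gene symbol in the RefSeq GRCr8 table by accession, 12012 matched none and 0 several; 70 probes without a value on some array were left out. Array coordinates, on rn4 per the file headers, were not used. Probes well above background on at least 5 arrays were kept, and each gene took its brightest kept probe, which left 12360 of 15443 genes.

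Means of the 5 groups came from a linear model of the 25 arrays in limma 3.58.1 (R 4.3.3; 20 residual and 3.17 prior degrees of freedom). Contrasts were two-sided with Benjamini-Hochberg adjustment over all genes. The pooled contrast is the mean of the 3 tocopherol group means minus the NMBA mean. Rats are separate animals, and rat numbers do not pair them. On simulated data with 12360 genes, the pooled test recovered 76% of genes set to change by 1 log2 unit and 99% at 2, and called 11 unchanged genes over both sizes. The simulation drew independent noise for each gene and held no step between slides and no difference in array quality. It therefore does not measure false calls from either. The number of arrays limits the precision.

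The members and the 38 gene lists (639 genes tested) were chosen with earlier results of these data known, so their counts are descriptive. Genes were named by rule: the 10 largest rises and falls common to the preparations without overlap, and up to 4 called members per list. Added were a few genes known from earlier results and, among genes called in the pooled test, those that differed most among the preparations. Provisional symbols were not named, and not all were printed. Motifs were searched in the 250 bases before each start, from the RefSeq table. Alternatives changed the scaling, background correction, filter, probe choice, arrays, slide, array position and replicate number. The files had no mean signal column, so normexp used median signals, with an offset of 50. Leaving out NMBA rats 2 and 3, and adding the share of spots above background as a covariate, were chosen after seeing the data.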

Additional observations from a re-analysis of the deposited data

Results flagged for a closer look

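Among 360 sets of 5 rats (1 gene in 1 group), 30 had 1 rat far from the other 4, where chance gives about 1 in 20. Control rat 1 was that rat in 8 of them: Cxcl11 at −5.76, Krt13 at 4.67, Cnfn at 4.25, Sprr3 at 4.61, Cdkn1a at 1.1, Fabp5 at 4.57, Trib1 at −4.58 and Tnni3k at −8.32. Gamma-enriched rat 3 stood apart in 5 sets, with Ccl22 at −3.82, Psmb8 at −2.35, Ciita at −3.22, Ccnd1 at 2.47 and Nqo1 at 3.98. Alpha rat 4 stood apart in 4 sets, with Ccl5 at −4.15, Gbp5 at −3.56, Gzmb at −6.13 and Pds5a at −4.06. Control rat 2 stood apart for Ccl22 at −5.39 and Ccnd1 at 1.82.

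The remaining sets were spread over other rats. In tocopherol rats these were Ccl12 in delta rat 4 at −5.38, Cd8b in alpha rat 1 at −5.32, Krt14 in delta rat 3 at 4.36, Gip in gamma-enriched rat 4 at −1.50, Pdk4 in alpha rat 5 at −0.83, Trib1 in alpha rat 2 at −4.88 and Pik3r1 in delta rat 5 at −0.53. In NMBA rats they were RT1-DMb in rat 4 at 1.55, Pltp in rat 5 at −0.21 and Pik3r1 in rat 1 at −1.07. In Control rats the last was Hmmr in rat 4 at −4.65.

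The preparations differed from each other in Tnni3k and Tcte1, each with an adjusted p of 0.0419 in limma's moderated F test. Gamma-enriched minus alpha was −2.13 for Tnni3k, −1.66 for Tcte1 and 1.71 for Zbtb16, and 211 genes were called in that contrast.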

How the results depend on the processing

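The pooled count of 1444 genes called stayed within 1.5 times under quantile, normexp, the deposited table, other filters of dim probes and other probe choices; quantile normalization gave 763 lower and 410 higher. Without a filter on dim probes the counts were 3828 pooled, 2161 for alpha, 1417 for delta, 3558 for gamma-enriched and 26 in the F test among preparations. A fixed slide block gave 1 gene pooled and 1 for each preparation, 0 in the F test, 5 for tocopherol against Control and 52 for NMBA against Control. A random slide block gave 750 for delta, 190 in the F test and 236 for tocopherol against Control, and array position gave 870 for delta, 1870 for gamma-enriched, 140 in the F test and 837 for tocopherol against Control. Without NMBA rats 2 and 3 the counts were 76 pooled, 20 for alpha, 0 for delta, 197 for gamma-enriched and 68 for NMBA against Control. With the share of spots above background as a covariate they were 74 pooled, 0 for alpha, 1 for delta, 248 for gamma-enriched, 1 in the F test, 56 for tocopherol against Control and 123 for NMBA against Control. The F test called 0 genes with normexp, 0 with probes above background on at least 15 arrays and 153 over the 20 tocopherol and NMBA arrays. Tocopherol against Control gave 181 with quantile and 179 with normexp. The cause of these differences was not tested.

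Leaving out 1 rat gave 581 to 1858 genes pooled, 194 to 464 for alpha, 20 to 712 for delta, 595 to 1726 for gamma-enriched, 0 to 102 in the F test, 38 to 383 for tocopherol against Control and 100 to 300 for NMBA against Control. Of the 1444 pooled calls, 588 remained without NMBA rat 1, 576 without rat 2, 703 without rat 3, 1263 without rat 4 and 876 without rat 5. Same-numbered rats did not deviate together (median correlation −0.052 over 50 pairs), so rats share only a number; with a replicate block the counts were 1035 pooled, 309 for alpha, 206 for delta and 0 in the F test.

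Signs turned in these cases. With the fixed slide block Krt14 was 0.094, Krt4 0.067, Krt13 0.20, Cnfn 0.21, Sprr3 0.53, Cdkn1a 0.38, Gip 0.70, Fabp5 0.35, Nqo1 0.12, Tnni3k 0.71 and Tcte1 0.76. With quantile Ccnd1 was 0.083 and Nqo1 0.10; with normexp Mki67 was −0.053 and Nqo1 0.001; with the covariate Nqo1 was 0.011. Mki67 was −0.018 without NMBA rats 2 and 3. Leaving out 1 NMBA rat gave Ccnd1 at −0.184 to 0.049 and Mki67 at −0.012 to 0.224. Of 65 named genes called, 51 were called on leaving out any 1 rat. With normexp the differences of dim probes were smaller, and its offset of 50 by itself makes such differences smaller.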
